A study of Homo sapiens with 12 samples.

Results

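Clustered protocadherins are cadherin-family adhesion proteins encoded side by side on human chromosome 5, and 53 of the 58735 genes in the expression table belong to them. The members were taken as every protein-coding gene whose symbol starts with PCDHA, PCDHB or PCDHG followed by A, B, C or a digit. They comprise 15 PCDHA genes at chr5:140786136-141012347, 16 PCDHB genes at chr5:141051135-141249365 and 22 PCDHG genes at chr5:141330571-141512981, all on the plus strand of GRCh38. RNA sequencing was done on 12 libraries of 2 human neuroblastoma lines, grown in culture from a childhood tumour of sympathetic nerve precursors. Groups, each with 3 libraries, were labelled SK-N-SH with the short hairpin shTSPYL5 (genotype TSPYL5 knockdown), SK-N-SH with the hairpin shNC (genotype WT), the second line with shTSPYL5 and the second line with shNC. No drug treatment was given, per the labels, and the time after transduction and the number of clones are not given in the sources used. Titles call the second line SK_N_BE2 while its remaining labels read SH-SY5Y.

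In nerve cells each clustered protocadherin gene has its own promoter, and a cell uses only some of them. The proteins bind like partners on neighbouring cells, and the mix of isoforms is known to give mouse neurons an identity by which branches of the same cell avoid each other. A PCDHA or PCDHG transcript joins one variable exon, which encodes the extracellular and membrane-spanning parts, to 3 exons shared by its whole cluster, which encode a common cytoplasmic end. PCDHB genes have no such shared end. The last genes of the PCDHA and PCDHG clusters, called C-type, are used more broadly in mouse neurons than the others. Promoters are known to be chosen through the looping proteins CTCF and cohesin and through DNA methylation.

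The labels were checked first. TSPYL5, the target of the hairpin and a member of the TSPY-like gene family, was at 17.1, 18.3 and 17.8 FPKM in libraries with the label SK-N-SH knockdown, against 13.1, 13.4 and 12.2 FPKM in those labelled SK-N-SH control. In the second line it was at 13.3, 12.4 and 12.6 FPKM in knockdown, against 24.0, 24.4 and 25.8 FPKM in control. The level thus went against the label in SK-N-SH, with a log2 fold of 0.43 ± 0.05 (SE), and with it in the second line, with a log2 fold of -0.90 ± 0.05. MYCN, an oncogene known to be amplified in SK-N-BE(2) and not in SK-N-SH or SH-SY5Y, averaged 1028 FPKM in libraries with the label SK-N-SH knockdown and 0.0408 FPKM in those labelled SK-N-SH control. It had 0 reads in second line knockdown and averaged 1040.4 FPKM in second line control. The effect of the hairpin and a difference in the cells themselves therefore cannot be told apart within either labelled line, and every direction below is one between libraries as labelled. Depth was 15542671 to 16355217 reads in SK-N-SH knockdown, 18014544 to 18909666 in SK-N-SH control, 18282551 to 19249018 in second line knockdown and 15425460 to 16459726 in second line control. The sum of 10 markers of noradrenergic neuroblastoma cells was 1731 to 1841 FPKM in SK-N-SH knockdown, against 95.3 to 108 FPKM in SK-N-SH control. That sum was 68.0 to 84.1 FPKM in second line knockdown, with TH and ELAVL4 at 0 reads, against 1882 to 1936 FPKM in second line control. TH also had 0 reads in SK-N-SH control. The sum of 11 mesenchymal markers was 257 to 264 FPKM in SK-N-SH knockdown, against 1956 to 2240.3 FPKM in SK-N-SH control, and 1613 to 1785 FPKM in second line knockdown, against 240.5 to 259 FPKM in second line control. In the limma test described below, 9 of these 11 were lower in SK-N-SH knockdown, TWIST1 was higher and SNAI2 was not called. In second line knockdown 10 were higher and TWIST1 was lower. That test called 79.8% of all tested genes in SK-N-SH and 80.0% in the second line. Epithelial markers (5 genes) summed to 0.957 to 1.29 FPKM in SK-N-SH knockdown, against 19.8 to 25.2 FPKM in SK-N-SH control, and to 23.9 to 29.6 FPKM in second line knockdown, against 0.982 to 1.78 FPKM in second line control. Of the 3 epithelial markers tested, KRT8 and KRT18 followed the sum and EPCAM went the other way. The log2 fold of EPCAM was 0.40 in SK-N-SH and -0.45 in the second line. Schwann markers (5 genes) summed to 1.30 to 2.31 FPKM over the 12 libraries. Blood and endothelial markers (5 genes) summed to 1.20 to 1.30 FPKM in SK-N-SH knockdown, against 0.393 to 0.576 FPKM in SK-N-SH control, and to 0.403 to 0.630 FPKM in second line knockdown, against 0.727 to 0.920 FPKM in second line control. The part of these cell-state markers in the results below was not tested.

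The shared exons set what a level of these genes means. All 15 PCDHA genes share 59 bases at chr5:140978949-140979007, 89 at chr5:140982475-140982563 and 2718 at chr5:141009627-141012344, which is 2866 bases in all. All 22 PCDHG genes share 59 bases at chr5:141494807-141494865, 89 at chr5:141505393-141505481 and 2033 at chr5:141510947-141512979, or 2181 bases. The joins of the variable exon to the first shared exon are shown for 4 genes whose levels the results turn on, because they are the only short stretch that both names the gene and enters the shared end. The last 20 bases of the variable exon are in lower case and the first 40 bases of the shared exon in capitals, from GENCODE 29 transcripts on GRCh38, plus strand.
PCDHA11: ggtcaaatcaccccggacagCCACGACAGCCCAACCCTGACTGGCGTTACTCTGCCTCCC
PCDHAC2: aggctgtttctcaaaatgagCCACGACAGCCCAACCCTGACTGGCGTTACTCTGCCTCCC
PCDHGB7: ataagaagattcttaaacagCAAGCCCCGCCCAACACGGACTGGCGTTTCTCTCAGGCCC
PCDHGC3: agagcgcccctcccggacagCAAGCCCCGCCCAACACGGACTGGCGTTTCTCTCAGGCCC
The first shared exon was the same in all genes of a cluster, and 39 of its 59 positions were identical between the PCDHA and PCDHG clusters. A read that lies wholly in shared exons cannot be given to one gene. Within 1 library the PCDHG gene with the fewest reads had 0 to 3 and the one with the most had 1304 to 2980. For PCDHA genes the lowest had 0 to 10 reads and the highest 56 to 491. Reads of the shared exons were therefore not counted for every gene of the cluster. The gene length in the authors' FPKM includes the shared exons (it equals the full annotated exon length for all 53 members), so FPKM is low for PCDHA and PCDHG relative to PCDHB. Sums over clusters and shares of genes within a cluster are therefore given per length of exon that no other annotated gene overlaps, called unshared exon here, while FPKM is used to compare a gene with itself between libraries. No source used here states a strand setting for the counting, so reads of antisense transcripts inside the locus cannot be told apart from those of the genes. Near-identical members can also exchange reads, and levels of single PCDHB genes and of pairs such as PCDHGB4 and PCDHGB5 are uncertain for that reason. Some members overlap others beyond the shared end. PCDHGB4 and PCDHGA8 each share 4447 exon bases with other members, against 2181 for the other PCDHG genes. PCDHA2 and PCDHA3 each share 3428, against the 2866 common to the PCDHA cluster.

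Short stretches of the promoters are shown for the members whose levels the results turn on, because each cluster carries its own version of one word. Of the 53 members, 47 matched a promoter window in RefSeq (GRCh38.p14), which runs from 250 bases before the annotated gene start to 50 after it. The word searched was the 8-letter word containing CGCT, the core of the known conserved element of these promoters, that most windows of a cluster held. The words are ATGTCGCT for PCDHA, GTGGCGCT for PCDHB and GCCGCTGT for PCDHG. Each line gives 30 bases of the plus strand, 5′ to 3′, with the best match to the cluster's word in capitals.
PCDHA10, chr5:140855842-140855871: aaagccaccggATGTCGCTgtcgtccacaa
PCDHA11, chr5:140868884-140868913: ttaggcgcaagGTGTCGCTctttacttggt
PCDHAC1, chr5:140926221-140926250: cctagaaggtgTGGTCGCTcacgttcaccg
PCDHAC2, chr5:140966339-140966368: gggtgaaggagATGGGGCTggagaggctga
PCDHB2, chr5:141094545-141094574: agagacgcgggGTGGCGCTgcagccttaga
PCDHB4, chr5:141121724-141121753: caagacgcaggGTGGCGCTgcaggctaagt
PCDHB7, chr5:141172567-141172596: caaaacgcaagGTGGCGCTgctggctaaaa
PCDHB8, chr5:141177778-141177807: gaggacccgtgGTGGCGCTgcaggataaga
PCDHGB2, chr5:141359924-141359953: aacctctgagcGTCGCTGTtggtcaaaaga
PCDHGA7, chr5:141382652-141382681: ggactcacagcGCCGCTGTtcaccaaccag
PCDHGA10, chr5:141412934-141412963: ggactctgagcGCCGCTGTtcacctactag
PCDHGB7, chr5:141417586-141417615: agcctctgggcGCCGCCGTcggccagtgca
PCDHGC3, chr5:141475883-141475912: ggactctgtgtGCCGCTGTcggccaatgaa
PCDHGC4, chr5:141484955-141484984: tgagcccgggaGCCGCTGTctgccaatcgg
ATGTCGCT was in 9 of 13 PCDHA windows and 0.2335% of all 35116 windows of the same length, counting both strands. GTGGCGCT was in 13 of 14 PCDHB windows and 1.15% of all windows, and GCCGCTGT in 11 of 20 PCDHG windows and 1.635% of all windows. No word was found in a window of either other cluster, where the search over both strands gave 0 matches for each. CGCT, which lies inside all 3 words, was in 46 of the 47 windows against 70.01% of all windows, CCCTC in 12 of 47 against 71.2%, and TATAA in 17 of 47 against 20.44%. Exact words began a median of 52 bases before the gene start in PCDHA, 65 in PCDHB and 67 in PCDHG. In the C-type genes PCDHAC1 and PCDHAC2 the best match differed from the PCDHA word at 2 positions, and that of PCDHAC2 lacked CGCT. Neither match is therefore shown to be a version of the word. The C-type genes PCDHGC3 and PCDHGC4 held the PCDHG word exactly. PCDHGB7 departed from it at 1 position. These matches describe letters, not binding sites, and the words were picked from the same windows in which they were counted.

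**Figure D1:**
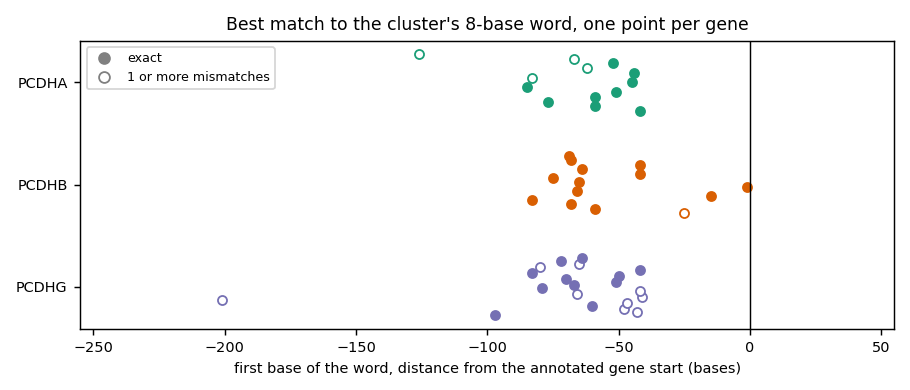
Position of the best match to the cluster's 8-base word in the promoter window of each of the 47 members with a window, as distance in bases from the annotated gene start. Filled points are exact matches and open points have 1 or more mismatches; exact matches lie between 97 bases before the start (PCDHGA1) and 1 base before it (PCDHB8).

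The summed level of each of the 3 clusters differed between the labelled groups, though genes within a cluster moved in both directions. Per kilobase of unshared exon, PCDHA genes summed to 23.8 ± 2.07 in SK-N-SH knockdown and 1.57 ± 0.181 in SK-N-SH control, and to 1.80 ± 0.505 in second line knockdown and 23.2 ± 1.62 in second line control (mean ± SD, n = 3 each, in the authors' scaling of depth). PCDHG genes summed to 37.0 ± 1.28 in SK-N-SH knockdown and 93.2 ± 2.96 in SK-N-SH control, and to 86.6 ± 5.82 in second line knockdown and 39.0 ± 2.73 in second line control. PCDHB genes summed to 20.3 ± 2.22 in SK-N-SH knockdown and 25.7 ± 0.549 in SK-N-SH control, and to 32.5 ± 3.19 in second line knockdown and 19.6 ± 1.79 in second line control. The PCDHA sum was thus high in the groups in which the PCDHG sum was low. For all 3 clusters the libraries of knockdown and control did not overlap within either labelled line. The same held for 81.5% of all tested genes in SK-N-SH and 81.4% in the second line. In bulk RNA, fewer cells that use a gene and less RNA per cell cannot be told apart. PCDHA held 29.3% ± 0.924 of the summed level of all 53 members in SK-N-SH knockdown and 1.30% ± 0.138 in SK-N-SH control. Of the second line sum, PCDHA held 1.48% ± 0.391 in knockdown and 28.4% ± 0.415 in control. PCDHG held 45.6% ± 1.96 in SK-N-SH knockdown and 77.3% ± 0.240 in SK-N-SH control, and 71.7% ± 1.76 in second line knockdown and 47.7% ± 1.11 in second line control.

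**Figure D2:**
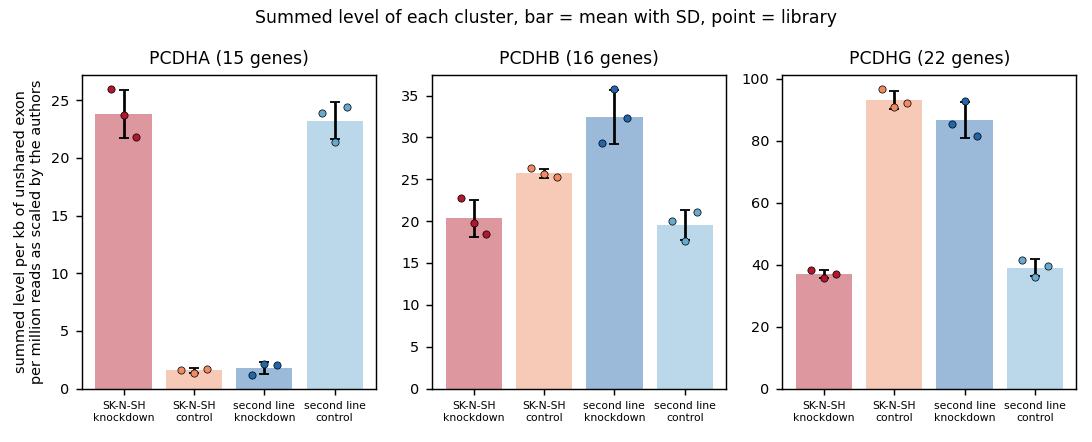
Summed level of the PCDHA, PCDHB and PCDHG genes per kilobase of unshared exon (y axes, linear from 0) in the 4 labelled groups; bars are means with SD over 3 libraries and points are libraries. The PCDHA sum is 21.8 to 25.9 in SK-N-SH knockdown and 21.4 to 24.4 in second line control, and at most 2.09 in the other libraries.

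How many members counted as detected depended on the measure. In SK-N-SH knockdown 8 of 15 PCDHA genes, 7 of 16 PCDHB genes and 3 of 22 PCDHG genes had a mean of at least 0.5 FPKM, against 0, 12 and 9 in SK-N-SH control. In second line knockdown the counts were 0, 13 and 8 in the same order of clusters, against 8, 7 and 3 in second line control. Because of the shared exons these counts compare groups and not clusters. By a looser measure, at least 3 reads in every library of the group, 15 PCDHA, 12 PCDHB and 17 PCDHG genes were detected in SK-N-SH knockdown, against 7, 15 and 20 in SK-N-SH control. That measure gave 7, 15 and 19 in second line knockdown, against 15, 13 and 19 in second line control. PCDHGC3 alone held 67.2% ± 2.49 of the PCDHG sum per unshared exon in SK-N-SH knockdown and 49.9% ± 1.21 in SK-N-SH control, and 57.5% ± 0.685 in second line knockdown and 67.2% ± 4.39 in second line control. The next gene was PCDHGC4 in SK-N-SH knockdown (12.2% ± 0.326) and in second line control (13.5% ± 2.28), and PCDHGB7 in SK-N-SH control (23.1% ± 0.806) and second line knockdown (18.1% ± 0.698). Within PCDHA, PCDHAC2 led in SK-N-SH knockdown with 32.9% ± 4.51 and in second line control with 34.0% ± 2.40. In SK-N-SH control no PCDHA gene led beyond the spread: PCDHA3 held 20.3% ± 3.37, PCDHA2 20.3% ± 1.15 and PCDHA4 19.7% ± 0.801. Within PCDHB, PCDHB16 and PCDHB4 together led in SK-N-SH knockdown (29.9% ± 2.57 and 23.3% ± 0.412) and in second line control (30.2% ± 0.743 and 23.7% ± 2.34). PCDHB2 led in second line knockdown with 31.3% ± 0.280, while in SK-N-SH control PCDHB8 (14.7% ± 1.50), PCDHB6 (14.2% ± 1.73) and PCDHB2 (13.4% ± 1.57) lay within their spread.

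**Figure D3:**
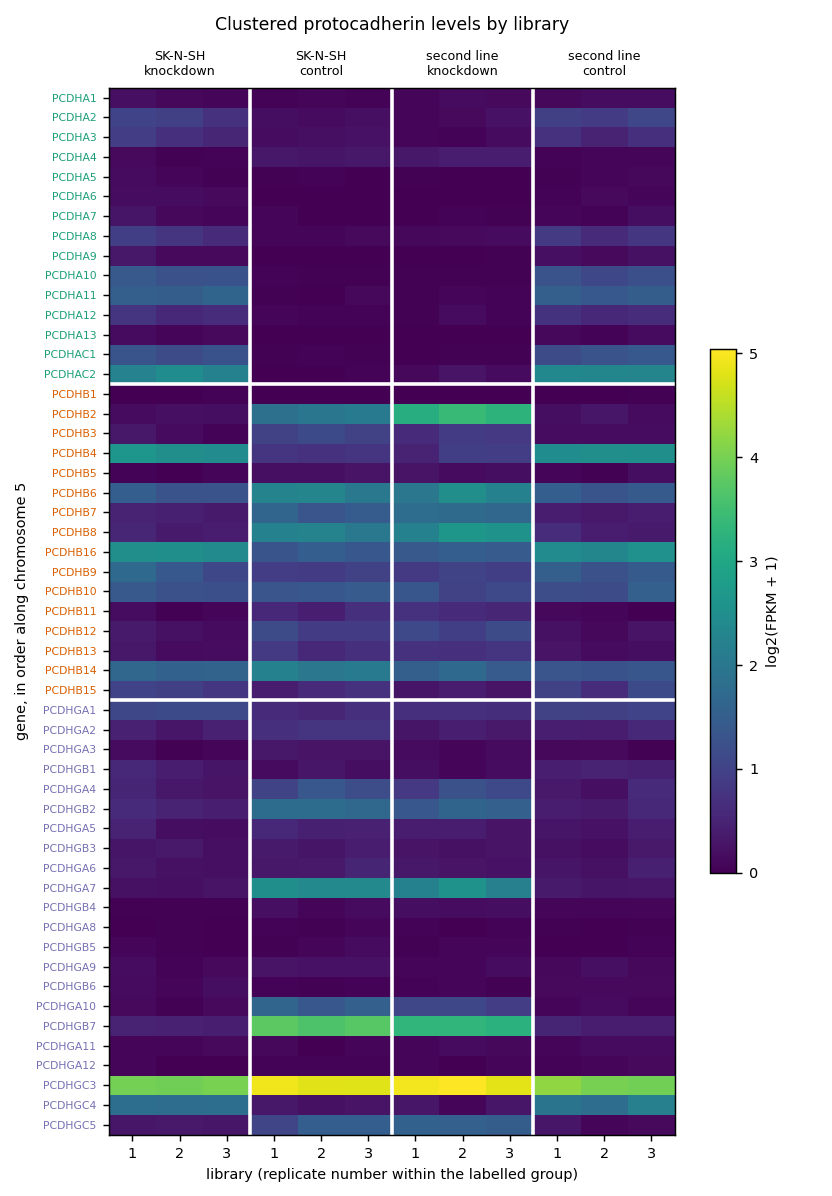
Level of each of the 53 members (rows, in order along chromosome 5, label colour by cluster) in each of the 12 libraries (columns, by labelled group), as log2(FPKM + 1) on the colour scale. The 3 columns of a group resemble each other, and PCDHGC3 is the brightest row in all 12 libraries. In SK-N-SH knockdown and in second line control, 8 of the 15 PCDHA rows average at least 0.5 FPKM and are brighter than in the other groups.

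In the comparison of SK-N-SH knockdown with SK-N-SH control, the tested PCDHA genes were higher, most tested PCDHG genes were lower and PCDHB genes were split. Of the 53 members, 26 had a mean of at least 0.5 FPKM over all libraries and were tested with limma (5 PCDHA, 12 PCDHB and 9 PCDHG). Of these 26, 25 passed an adjusted p of 0.05, 11 higher and 14 lower, where 79.8% of all 15856 tested genes passed (40.7% higher and 39.0% lower), and libraries did not overlap for 25 of 26 members and 81.5% of all genes. The tested PCDHA genes, PCDHA2, PCDHA10, PCDHA11, PCDHAC1 and PCDHAC2, rose with log2 folds of 0.70 to 2.28. They reached the minimum only through the groups where they were high, since no PCDHA gene averaged above 0.242 FPKM in SK-N-SH control. Their shared direction thus follows in part from the minimum and is not a count over the cluster. The minimum was also reached only through high groups by PCDHB2, PCDHB3, PCDHB7, PCDHB8, PCDHB12, PCDHB15, PCDHGA4, PCDHGB2, PCDHGA7, PCDHGA10, PCDHGB7, PCDHGC4 and PCDHGC5. Each of these averaged under 0.5 FPKM in both groups where it was low. Their directions and the 25 of 26 passed therefore follow in part from the minimum. Among PCDHB genes, PCDHB4, PCDHB9, PCDHB15 and PCDHB16 rose and PCDHB2, PCDHB3, PCDHB6, PCDHB7, PCDHB8, PCDHB12 and PCDHB14 fell. Among PCDHG genes, PCDHGA1 and PCDHGC4 rose and the other 7 fell. The median log2 fold was -0.61 over the 26 members and 0.02 over all tested genes. The share of members called is to be read against a background in which most genes were called.

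In the second line the directions were the other way round for every member called. Of the 26 members, 25 passed, 14 higher and 11 lower in knockdown, where 80.0% of all tested genes passed (39.9% higher and 40.2% lower). Libraries did not overlap for 25 of 26 members and 81.4% of all genes. The 11 members that rose in the SK-N-SH comparison fell here and the 14 that fell there rose here, and these comparisons share no library. The share of all tested genes reversed in this way was not counted, so the reversal is not shown to be particular to the members. The difference of the 2 comparisons (second line minus SK-N-SH) passed for 25 of 26 members, with 14 positive and 11 negative, against 84.9% of all genes (41.8% positive and 43.1% negative). PCDHB10 did not pass in any of the 3, with 1.64, 1.38 and 1.36 FPKM in SK-N-SH knockdown and 1.52, 1.59 and 1.74 in SK-N-SH control. An antisense transcript lies across PCDHB10, and 3245 of the 3290 exon bases of PCDHB10 overlap no other annotated gene. The antisense level was 1.99 ± 0.217 FPKM in SK-N-SH knockdown and 0.984 ± 0.694 FPKM in SK-N-SH control. In the second line the antisense transcript was not called.

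The PCDHA genes showed the widest relative range. PCDHAC2, a C-type gene that mouse serotonergic neurons need to space their axons, had 3.70, 4.47 and 3.66 FPKM in SK-N-SH knockdown, against 0.00849, 0.00837 and 0.0339 FPKM in SK-N-SH control. In the second line it had 0.0790, 0.197 and 0.115 FPKM in knockdown, against 4.08, 3.94 and 3.91 FPKM in control. It was therefore close to silent in the control libraries of SK-N-SH (6 reads in all 3) and in use in the knockdown libraries (1266 reads), and the other way round in the second line. Its log2 fold was 2.28 ± 0.07 in SK-N-SH (SE, adjusted p = 9.5e-11) and -2.14 ± 0.07 in the second line (adjusted p = 1.5e-10) on the log2(FPKM + 1) scale, which understates changes of low genes. The ratio of mean FPKM was 233 in SK-N-SH and 0.0327 in the second line.

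PCDHAC1, the other C-type gene of the cluster, had 1.46, 1.23 and 1.39 FPKM in SK-N-SH knockdown, against 0.0232, 0.0305 and 0.0154 FPKM in SK-N-SH control. It had 0, 0.0256 and 0.0161 FPKM in second line knockdown, against 1.24, 1.44 and 1.63 FPKM in second line control. The groups did not overlap, and the log2 folds were 1.21 ± 0.08 in SK-N-SH (adjusted p = 4.8e-08) and -1.26 ± 0.08 in the second line (adjusted p = 3.0e-08). PCDHA10 and PCDHA11 are alternate, non-C-type isoforms. PCDHA11 had 1.89, 1.80 and 2.08 FPKM in SK-N-SH knockdown, against 0.0256, 0 and 0.0766 FPKM in SK-N-SH control. Second line knockdown libraries held 0.0177, 0.0565 and 0.0355 FPKM of it, against 1.88, 1.63 and 1.80 FPKM in second line control. Both pairs of groups were apart, with log2 folds of 1.50 ± 0.07 (adjusted p = 2.6e-09) and -1.42 ± 0.07 (adjusted p = 3.9e-09). PCDHA10 had 1.65, 1.37 and 1.43 FPKM in SK-N-SH knockdown, against 0.0388, 0.0139 and 0.0141 FPKM in SK-N-SH control. For second line knockdown the values of PCDHA10 were 0.0146, 0.0233 and 0.0147 FPKM, against 1.43, 1.12 and 1.36 FPKM in second line control. It rose by 1.28 ± 0.08 in SK-N-SH (adjusted p = 2.4e-08) and fell by 1.18 ± 0.08 in the second line (adjusted p = 4.7e-08), both as log2 folds.

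PCDHA4 went against the rest of its cluster. Its unshared exon, at 10574 bases, is the longest of the PCDHA genes, and where in it the reads lie was not tested. It was below the level for the main test, with 0.0929, 0.0171 and 0.0379 FPKM in SK-N-SH knockdown, against 0.252, 0.220 and 0.255 FPKM in SK-N-SH control. Second line libraries had 0.252, 0.313 and 0.328 FPKM in knockdown, against 0.0392, 0.0566 and 0.0629 FPKM in control. The libraries did not overlap in either line, with 34 reads in SK-N-SH knockdown and 183 in SK-N-SH control, and 211 in second line knockdown and 36 in second line control. In a limma voom fit on recovered reads of every gene with at least 10 reads, PCDHA4 had log2 folds of -2.53 ± 0.39 in SK-N-SH (adjusted p = 1.7e-05) and 2.46 ± 0.36 in the second line (adjusted p = 8.7e-06). The other 14 PCDHA genes rose in SK-N-SH in that fit, though some of them reached 10 reads only through the groups where they were high. PCDHA13 had 0 reads in SK-N-SH control and 24 in SK-N-SH knockdown, a level at least 8.89-fold higher against a floor of 3 reads over the group. PCDHA13 also had 0 reads in second line knockdown, against 20 in second line control, at least 6.98-fold lower.

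**Figure D4:**
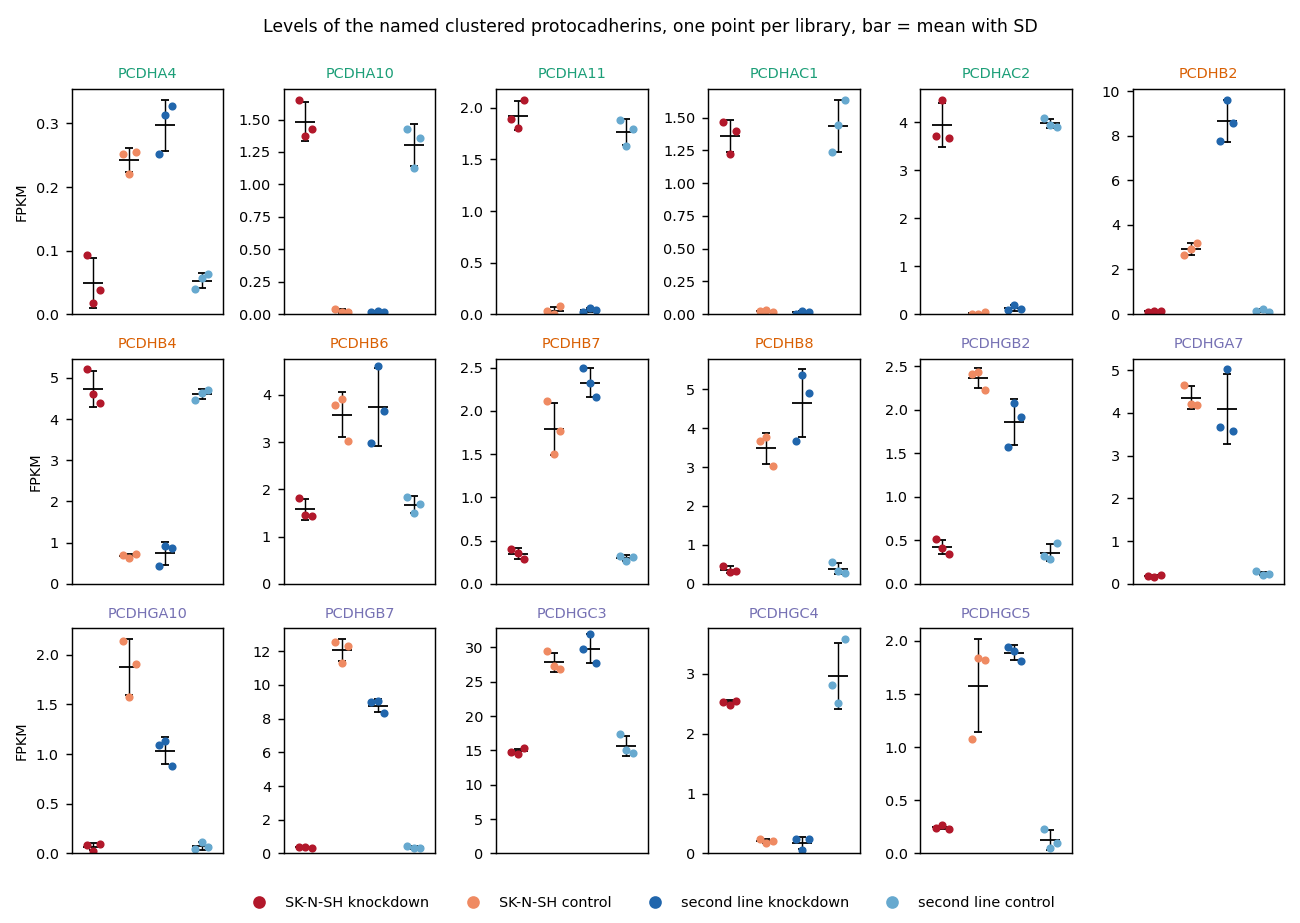
FPKM of the 17 members described one by one (panels, in order along chromosome 5) in each library; points are libraries, bars the mean with SD of 3 libraries, and each y axis is linear from 0 with its own range. In each panel the libraries of SK-N-SH knockdown lie near those of second line control and apart from those of SK-N-SH control and second line knockdown.

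PCDHB proteins have the same kind of extracellular part as the others and no shared cytoplasmic end. PCDHB4, the largest riser of the cluster in SK-N-SH, had 5.23, 4.61 and 4.38 FPKM in SK-N-SH knockdown, against 0.701, 0.636 and 0.713 FPKM in SK-N-SH control. Second line knockdown libraries had PCDHB4 at 0.421, 0.913 and 0.875 FPKM, against 4.47, 4.64 and 4.72 FPKM in second line control. It rose by 1.77 ± 0.10 in SK-N-SH (adjusted p = 1.7e-08) and fell by 1.70 ± 0.10 in the second line (adjusted p = 2.2e-08) on the log2 scale. PCDHB2 showed the opposite order and the widest spread between the low and high groups of the cluster. It had 0.110, 0.153 and 0.139 FPKM in SK-N-SH knockdown, against 2.64, 2.94 and 3.20 FPKM in SK-N-SH control. In second line knockdown PCDHB2 had 7.76, 9.61 and 8.57 FPKM, against 0.142, 0.241 and 0.102 FPKM in second line control. Its log2 fold was -1.79 ± 0.08 in SK-N-SH (adjusted p = 2.2e-09) and 3.05 ± 0.08 in the second line (adjusted p = 2.0e-11), with no overlap of libraries in either line.

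PCDHB6, PCDHB7 and PCDHB8 are consecutive members and moved the same way. PCDHB8 had 0.456, 0.294 and 0.326 FPKM in SK-N-SH knockdown, against 3.66, 3.76 and 3.03 FPKM in SK-N-SH control. Its second line values were 3.67, 5.36 and 4.91 FPKM in knockdown, against 0.555, 0.321 and 0.286 FPKM in control. The log2 folds of PCDHB8 were -1.72 ± 0.12 (adjusted p = 8.7e-08) and 2.02 ± 0.12 (adjusted p = 2.0e-08), with no overlap of libraries in either line. PCDHB7 had 0.407, 0.351 and 0.288 FPKM in SK-N-SH knockdown, against 2.11, 1.50 and 1.76 FPKM in SK-N-SH control. Second line knockdown had 2.49, 2.33 and 2.16 FPKM of PCDHB7, against 0.326, 0.264 and 0.305 FPKM in second line control. It fell by 1.04 ± 0.08 in SK-N-SH (adjusted p = 3.0e-07) and rose by 1.36 ± 0.08 in the second line (adjusted p = 2.8e-08). PCDHB6 had 1.83, 1.46 and 1.44 FPKM in SK-N-SH knockdown, against 3.79, 3.92 and 3.03 FPKM in SK-N-SH control. Second line values of PCDHB6 were 2.97, 4.60 and 3.66 FPKM in knockdown, against 1.84, 1.49 and 1.68 FPKM in control. PCDHB6 was at 1.44 FPKM or more in every library, and its log2 folds of -0.83 ± 0.12 (adjusted p = 6.3e-05) and 0.82 ± 0.12 (adjusted p = 7.0e-05) were the smallest of the 3 neighbours. PCDHB16 is the next member after PCDHB8 on the chromosome and moved the opposite way, with a log2 fold of 1.07 ± 0.07 in SK-N-SH (adjusted p = 6.0e-08) and -0.98 ± 0.07 in the second line (adjusted p = 1.3e-07).

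PCDHGB7 had the largest limma fold of all 26 tested members in SK-N-SH. This B-type isoform had 0.400, 0.370 and 0.334 FPKM in SK-N-SH knockdown, against 12.6, 11.3 and 12.3 FPKM in SK-N-SH control. In second line knockdown it had 8.96, 9.02 and 8.32 FPKM, against 0.436, 0.318 and 0.316 FPKM in second line control. It was the second gene of the cluster in one group of each line and minor in the other, with log2 folds of -3.26 ± 0.06 in SK-N-SH (adjusted p = 6.9e-13) and 2.85 ± 0.06 in the second line (adjusted p = 1.9e-12). PCDHGA7, an A-type isoform, had 0.177, 0.158 and 0.199 FPKM in SK-N-SH knockdown, against 4.66, 4.21 and 4.19 FPKM in SK-N-SH control. Second line values of PCDHGA7 were 3.66, 5.02 and 3.58 FPKM in knockdown, against 0.290, 0.215 and 0.233 FPKM in control. The groups did not overlap, and it fell by 2.18 ± 0.10 in SK-N-SH (adjusted p = 1.4e-09) and rose by 2.02 ± 0.10 in the second line (adjusted p = 2.6e-09).

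PCDHGA10 and PCDHGB2 followed the same order of groups. PCDHGA10 had 0.0855, 0.0260 and 0.0959 FPKM in SK-N-SH knockdown, against 2.14, 1.58 and 1.91 FPKM in SK-N-SH control. For the second line PCDHGA10 had 1.09, 1.13 and 0.882 FPKM in knockdown, against 0.0440, 0.115 and 0.0636 FPKM in control. Its log2 folds were -1.42 ± 0.09 (adjusted p = 3.2e-08) and 0.92 ± 0.09 (adjusted p = 1.5e-06). PCDHGB2 had 0.512, 0.410 and 0.347 FPKM in SK-N-SH knockdown, against 2.42, 2.44 and 2.23 FPKM in SK-N-SH control. In second line knockdown PCDHGB2 had 1.57, 2.08 and 1.92 FPKM, against 0.319, 0.282 and 0.468 FPKM in second line control. It fell by 1.24 ± 0.09 in SK-N-SH (adjusted p = 7.7e-08) and rose by 1.07 ± 0.09 in the second line (adjusted p = 2.8e-07). The members that lie between PCDHGA7 and PCDHGA10, which are PCDHGB4, PCDHGA8, PCDHGB5, PCDHGA9 and PCDHGB6, had means of 0.0110 to 0.195 FPKM in the 4 groups.

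The 3 C-type genes of the PCDHG cluster lie next to each other at its end and did not move together. PCDHGC3, known to shape dendrites of mouse cortical neurons, had 14.8, 14.5 and 15.3 FPKM in SK-N-SH knockdown, against 29.4, 27.2 and 26.8 FPKM in SK-N-SH control. PCDHGC3 in second line knockdown was at 29.8, 31.9 and 27.7 FPKM, against 17.4, 15.0 and 14.7 FPKM in second line control. It was the highest member in every group, with a smaller fold than its neighbours: -0.86 ± 0.07 in SK-N-SH (adjusted p = 3.1e-07) and 0.88 ± 0.07 in the second line (adjusted p = 2.4e-07). PCDHGC4, which mouse interneurons need for survival, had 2.53, 2.48 and 2.55 FPKM in SK-N-SH knockdown, against 0.248, 0.170 and 0.204 FPKM in SK-N-SH control. PCDHGC4 in the second line was at 0.234, 0.0595 and 0.236 FPKM in knockdown, against 2.81, 2.51 and 3.58 FPKM in control. PCDHGC4 thus had the order of the PCDHA genes, with log2 folds of 1.55 ± 0.10 (adjusted p = 3.7e-08) and -1.75 ± 0.10 (adjusted p = 1.2e-08). PCDHGC5 had 0.239, 0.265 and 0.230 FPKM in SK-N-SH knockdown, against 1.08, 1.84 and 1.82 FPKM in SK-N-SH control. In second line knockdown PCDHGC5 had 1.95, 1.91 and 1.81 FPKM, against 0.234, 0.0469 and 0.0968 FPKM in second line control. It moved with PCDHGC3, with log2 folds of -1.04 ± 0.12 (adjusted p = 5.7e-06) and 1.36 ± 0.12 (adjusted p = 4.9e-07). Of the 5 C-type genes, PCDHAC1, PCDHAC2 and PCDHGC4 were therefore higher and PCDHGC3 and PCDHGC5 lower in SK-N-SH knockdown than in SK-N-SH control, and the reverse held in the second line.

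The 27 members below the test's minimum were followed through recovered reads. In the limma voom fit on genes with at least 10 reads in all, 52 members were tested and PCDHB1, with 5 reads in SK-N-SH knockdown and 0 in SK-N-SH control, was not. In SK-N-SH 47 of 52 passed (22 higher and 25 lower), where 67.4% of all 24966 genes passed (34.8% higher and 32.6% lower). In the second line 39 of 52 passed (19 higher and 20 lower), where 67.8% of all genes passed (32.4% higher and 35.4% lower). By cluster, 12 PCDHA genes were higher in SK-N-SH and lower in the second line, PCDHA1 and PCDHA7 were called in SK-N-SH alone, and PCDHA4 was opposite. Some members, such as PCDHA6, PCDHA9 and PCDHA13, reached 10 reads only through the groups where they were high. The counts of directions in this fit therefore also follow in part from its minimum. Among PCDHB genes 4 were higher in SK-N-SH and lower in the second line, 9 were the reverse, PCDHB5 was called in SK-N-SH alone and PCDHB10 in neither. Among PCDHG genes 4 were higher in SK-N-SH and lower in the second line (PCDHGA1, PCDHGB1, PCDHGB6 and PCDHGC4) and 8 were the reverse. A further 6 PCDHG genes, PCDHGA2, PCDHGA3, PCDHGA5, PCDHGA6, PCDHGA8 and PCDHGA9, were lower in SK-N-SH and not called in the second line. PCDHGB5 was the only member called in the second line alone, with a log2 fold of 1.90 ± 0.82 (adjusted p = 0.0498) on 10 reads in knockdown and 3 in control, and PCDHGA11, PCDHGA12 and PCDHGB3 were called in neither. PCDHGA2 had log2 folds of -1.05 ± 0.22 in SK-N-SH (adjusted p = 0.00046) and -0.43 ± 0.26 in the second line (adjusted p = 0.16). No member was called in the same direction in both lines (0 of 52). That share was not counted over all genes, so it is not shown to set the members apart. The difference of the comparisons passed for 45 of 52 members, against 75.1% of all genes (36.0% positive and 39.1% negative), with 23 positive and 22 negative members.

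**Figure D5:**
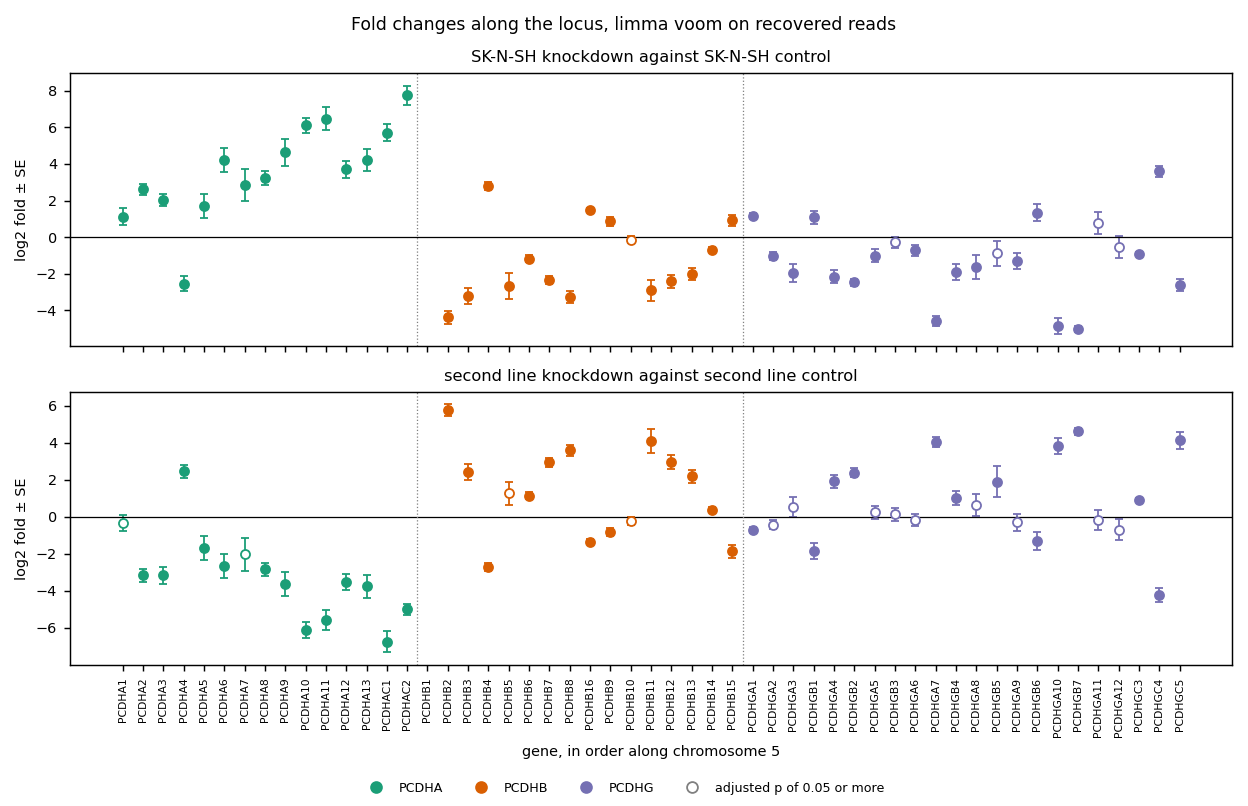
Log2 fold with SE (limma voom on recovered reads) of each member in order along chromosome 5, for knockdown against control in SK-N-SH (upper panel) and in the second line (lower panel); filled points have an adjusted p below 0.05, and dotted lines part the clusters. Points of the upper panel lie on the other side of 0 in the lower one for every member called in both, PCDHA4 included.

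The groups were also compared across the labelled lines, with the same libraries as above. With SK-N-SH knockdown set against the control of the second line, 0 of 26 members passed the limma test, where 5.39% of all genes did (2.26% higher and 3.12% lower), and 1 had an unadjusted p below 0.05. The voom fit also called 0 of 52, where 3.56% of all genes were called (1.45% higher and 2.11% lower), with 4 at an unadjusted p below 0.05. The member with the low unadjusted p in limma was PCDHB14, with 2.15, 1.94 and 2.06 FPKM in SK-N-SH knockdown, against 1.51, 1.42 and 1.56 FPKM in second line control. Its libraries did not overlap, as for 3 of 26 members and 27.0% of all genes, and its log2 fold was 0.29 ± 0.08 (adjusted p = 0.069). Log2 folds of the 26 members ran from -0.16 to 0.29 in this comparison. In a model of only these libraries 1 member passed, as it did without replicate 2 of second line knockdown, which changes only the shared estimate of the spread. With second line knockdown set against the control of SK-N-SH, 8 of 26 members passed, where 44.1% of all genes did (26.9% higher and 17.2% lower), and libraries did not overlap for 9 members and 51.0% of all genes. The voom fit called 12 of 52, against 32.5% of all genes (18.8% higher and 13.8% lower). The largest voom fold was that of PCDHAC2, at 2.78 ± 0.59 (adjusted p = 0.0015), with 43 reads in second line knockdown and 6 in SK-N-SH control. In limma, PCDHB2 was higher by a log2 fold of 1.30 ± 0.08 (adjusted p = 1.8e-06), PCDHB7 by 0.26 ± 0.08 (adjusted p = 0.028) and PCDHB8 by 0.32 ± 0.12 (adjusted p = 0.049). PCDHB14 (-0.53 ± 0.08), PCDHGA10 (-0.50 ± 0.09), PCDHGB7 (-0.42 ± 0.06), PCDHB3 (-0.27 ± 0.10) and PCDHGB2 (-0.24 ± 0.09) were lower in second line knockdown by limma. Of these 8, PCDHB3 was not called by voom (adjusted p = 0.080), and voom also called PCDHA3, PCDHGA2, PCDHGA3 and PCDHGA9 lower. The count of 8 was 4 without replicate 2 or 3 of SK-N-SH control and 5 without replicate 1 of SK-N-SH control, replicate 3 of second line knockdown or replicate 2 of SK-N-SH knockdown.

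Genes that lie inside the locus without being members were mostly below the minimum, and the flanking genes did not share one direction. Between the PCDHB and PCDHG clusters lies TAF7, a subunit of the general transcription factor TFIID, at 50.9 ± 0.595 FPKM in SK-N-SH knockdown and 42.8 ± 2.38 FPKM in SK-N-SH control, and at 47.7 ± 1.64 FPKM in second line knockdown and 47.1 ± 2.54 FPKM in second line control. It rose by 0.25 in SK-N-SH, and its log2 fold of 0.02 in the second line did not pass. Of the 31 genes annotated inside the locus that are not members, TAF7 included, 3 were tested, and these 3 rose in SK-N-SH while 0 rose and 1 fell in the second line. Among all tested genes 40.7% rose in SK-N-SH, and 39.9% rose and 40.2% fell in the second line. The locus gene that fell in the second line, with a log2 fold of -1.39 ± 0.07 against 1.44 ± 0.07 in SK-N-SH, was the pseudogene PCDHB18P. It was at 2.57 ± 0.0939 FPKM in SK-N-SH knockdown and 0.317 ± 0.0517 FPKM in SK-N-SH control. The latter level is under the minimum of 0.5 FPKM, which PCDHB18P reached through groups where it was high. Within 500000 bases on either side 28 genes were found and 22 tested, of which 8 rose and 7 fell in SK-N-SH and 10 rose and 9 fell in the second line, beside 79.8% and 80.0% of all tested genes called in either direction. PCDH1, a protocadherin of the other branch of the family, lies in that flank. It was at 3.47 ± 0.157 FPKM in SK-N-SH knockdown with 0 reads in SK-N-SH control, and at 0.0130 ± 0.0113 FPKM in second line knockdown, against 5.29 ± 0.0895 FPKM in second line control. Of the 12 protocadherins outside the clusters 4 were tested, and in SK-N-SH 1 rose and 3 fell, while in the second line 3 rose and 1 fell, with the same 79.8% and 80.0% of all tested genes called. PCDH10, with the largest fold of these, was at 0.110 ± 0.0292 FPKM in SK-N-SH knockdown and 89.4 ± 3.85 FPKM in SK-N-SH control, and at 102 ± 9.40 FPKM in second line knockdown and 0.0559 ± 0.0314 FPKM in second line control.

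Genes known to act on the choice of clustered protocadherin promoters were read as one list of 21, all tested. In SK-N-SH 17 rose and 3 fell, with a median log2 fold of 0.54, and in the second line 2 rose and 19 fell, with a median of -0.59, beside medians of 0.02 and -0.02 over all tested genes. Of all tested genes 40.7% rose and 39.0% fell in SK-N-SH, and 39.9% rose and 40.2% fell in the second line. CTCF, which binds these promoters and their enhancers, was at 9.42 ± 0.663 FPKM in SK-N-SH knockdown and 5.41 ± 0.485 FPKM in SK-N-SH control, and at 6.16 ± 0.513 FPKM in second line knockdown and 10.2 ± 0.201 FPKM in second line control. RAD21, a cohesin subunit, had log2 folds of 0.81 ± 0.10 (adjusted p = 2.0e-05) and -0.78 ± 0.10 (adjusted p = 2.6e-05). WAPL, which releases cohesin from DNA, had log2 folds of 0.40 ± 0.07 and -0.37 ± 0.07. DNMT3A, a DNA methyltransferase, had the largest fold of the list in both lines, with 27.1 ± 0.638 FPKM in SK-N-SH knockdown and 4.96 ± 0.127 FPKM in SK-N-SH control, and 3.57 ± 0.270 FPKM in second line knockdown and 24.9 ± 0.473 FPKM in second line control. DNMT3B, the methyltransferase that acts on alternate isoform promoters in mouse neurons, had log2 folds of 0.54 ± 0.09 and -0.62 ± 0.09. TET1, which oxidises methylated cytosine, had log2 folds of 1.99 ± 0.11 and -1.82 ± 0.11. SMCHD1, a repressor of the locus in mouse, fell by 0.39 ± 0.07 in SK-N-SH and rose by 0.33 ± 0.07 in the second line. The part of these levels in those of the protocadherins was not tested.

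Cytoplasmic partners of the proteins moved in both directions. Of 19 genes 18 were tested, and 5 rose and 9 fell in SK-N-SH, with a median log2 fold of -0.08, while 10 rose and 7 fell in the second line, with a median of 0.19. The share of all tested genes called in either direction was 79.8% in SK-N-SH and 80.0% in the second line. RET, a receptor kinase that binds clustered protocadherins, was at 31.3 ± 0.736 FPKM in SK-N-SH knockdown and 0.401 ± 0.139 FPKM in SK-N-SH control, and at 0.00555 ± 0.00481 FPKM in second line knockdown and 24.7 ± 1.30 FPKM in second line control. FYN, a kinase that binds the PCDHA cytoplasmic end, had log2 folds of 2.69 ± 0.09 in SK-N-SH (adjusted p = 8.9e-11) and -2.68 ± 0.09 in the second line (adjusted p = 8.3e-11). PRKCA, of the protein kinase C family that acts on the shared PCDHG end in mouse neurons, had log2 folds of -1.40 ± 0.06 and 1.30 ± 0.06. RET and FYN thus had the order of the PCDHA genes, and PRKCA that of most PCDHG genes. Any link of these levels to those of the protocadherins was not tested.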

How the data were processed

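The data are RNA sequencing of 12 libraries from 2 neuroblastoma lines, 3 for each of 4 labelled groups. A NEBNext Ultra kit was used on total RNA, per the labels' protocols. The submitters' processing notes list the aligner HISAT2 (2.0.5) and the counter featureCounts (1.5.0-p3). The values the authors deposited are FPKM per gene. Coordinates of all 58735 genes equal GENCODE 29 on GRCh38, and that build is used; the submitters' notes name a mouse build, which is not used. FPKM times gene length gave whole reads for 100% of values (tolerance 0.05 reads), and the authors' scaling differed from library totals by a factor of 0.924 to 1.08. The labels do not say that replicates are separate cultures, and p-values then reflect only how far these libraries spread, which may be technical. A floor of 3 reads over the group stands for 0 reads, and covers counting error only.

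The 15856 genes whose mean over 12 libraries reached 0.5 FPKM were tested on the log2(FPKM + 1) scale by limma 3.58.1 (R 4.3.3), in one model of 4 group means with an intensity trend and Benjamini-Hochberg adjustment over all tested genes, two-sided, at 0.05. Compared were knockdown and control within each labelled line, the difference of these, and each knockdown group against the other line's control. A limma voom fit on recovered reads was added after seeing the data. Scaling to library totals moved the median log2 fold of all genes to 0.06 in SK-N-SH, -0.13 in the second line and -0.19 for their difference, from 0.02, -0.02 and -0.03. Columns of no known sample numbered 0. A marker in one list is not reported here. Members and gene lists were chosen with earlier results of these data known. Values per library are given for the C-type genes, the 6 largest changes in each direction in each knockdown comparison whose libraries did not overlap, and the highest member of each cluster in each group. PCDHB10, PCDHB14, PCDHB16, PCDHA13, PCDHGA2 and PCDHGB5 were named after their values were seen. Other lists name set genes and up to 3 members with large folds. Steps were tested on simulated libraries.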

Additional observations from a re-analysis of the deposited data

Results flagged for a closer look

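The effects of the 2 knockdown comparisons differed for each of the 16 tested members whose values per library were chosen by the rule for named genes, by limma's test of the difference (second line log2 fold minus SK-N-SH log2 fold). Negative differences, where the level was lower in second line knockdown and higher in SK-N-SH knockdown than in the control, were -4.42 for PCDHAC2, -3.47 for PCDHB4, -3.29 for PCDHGC4, -2.92 for PCDHA11, -2.47 for PCDHAC1 and -2.46 for PCDHA10. Positive differences were 6.10 for PCDHGB7, 4.84 for PCDHB2, 4.20 for PCDHGA7, 3.74 for PCDHB8, 2.40 for PCDHB7, 2.40 for PCDHGC5, 2.34 for PCDHGA10, 2.32 for PCDHGB2, 1.75 for PCDHGC3 and 1.64 for PCDHB6. For PCDHB10 the difference, -0.05, did not pass. The difference passed for 84.9% of all genes tested, so these members are not singled out by it. TSPYL5 itself had opposite folds in the 2 labelled lines.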

How the results depend on the processing

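The log2 folds of the 16 tested members described one by one were refitted. Direction and side of the threshold were kept in 656 of 656 refits of these 32 folds. The refits used another pseudocount, other filters, scalings and models, and left out each library in turn. With the minimum of 2 FPKM, 16 of the 32 could be refitted. Apart from PCDHB6 and PCDHGC3, these members were among the largest changes past the threshold in these same libraries, so the refits are a weak check. Counts of members past the threshold moved with the number tested. With no filter they were 40 in SK-N-SH and 41 for the difference between lines, of 53. With a minimum mean of 2 FPKM they were 10 in SK-N-SH, 10 in the second line and 10 for the difference, of 10 tested, and 4 for knockdown of the second line against the control of SK-N-SH. In the voom fit on genes with at least 10 reads they were 47, 39 and 45 of 52. A model of only the groups compared gave 1 for SK-N-SH knockdown against the control of the second line and 5 for second line knockdown against the control of SK-N-SH. Leaving out each library in turn gave 24 to 25 members in SK-N-SH, 24 to 25 in the second line, 25 for the difference, 0 to 1 for SK-N-SH knockdown against the control of the second line and 4 to 7 for second line knockdown against the control of SK-N-SH. Replicate numbers did not pair the libraries: correlations of same-numbered deviations ran from -0.075 to 0.10. With the replicate number as a replicate block the count for second line knockdown against the control of SK-N-SH was 5, and no other count moved by over 1.5 times. The planned count models, from other packages, were not run on the recovered reads. Shares per unshared exon differ from those in FPKM, by which PCDHA held 23.3% of the summed level in SK-N-SH knockdown. Levels under about 0.1 FPKM rest on few reads.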
